A study of Caenorhabditis elegans with 2 samples.

Results

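The regions described here lie in autosomal sequence outside protein-coding genes and away from their 5′ ends. No distance from a 3′ end was required. In these places CEH-18 tagged with green fluorescent protein (GFP) gave a peak in chromatin of Caenorhabditis elegans embryos. Each region is represented by its summit, the base at which the authors' peak caller placed the maximum. A summit was kept when it lay on 1 of the 5 autosomes, outside the span of every protein-coding gene, and outside the promoter window of each such gene, which runs from 1000 bp before its 5′ end to 200 bp past it. Summits within 200 bp of a tRNA, snoRNA or snRNA gene were left out. These conditions used position only, and 502 of the 2575 thresholded summits (19.5%) met them, which is 25% of the 2005 autosomal summits. The other autosomal summits were 1014 in promoter windows, 314 in gene bodies and 175 beside small RNA genes.

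The chromatin came from whole hermaphrodites of the strain OP533, genotype unc-119(tm4063) III; wgIs533, in which an integrated transgene expresses CEH-18 with GFP-FLAG fused to its C-terminus. Late embryos were taken 3 h after bleaching, the treatment that frees eggs of a synchronous age, and chromatin was sheared by sonication. There were 2 biological replicates with 1 library each, sharing strain, stage and treatment, so they formed 1 group and no condition could be compared with another. The description names an antibody to GFP while the antibody field names ceh-18, so whether untagged protein was recovered as well is not known. Because whole embryos were used, binding in a few cells and weak binding in many cells cannot be told apart. The deposited lists hold peaks rather than reads, so the depth of each library is unknown and no error can be put on the signal of a single peak. Whether the replicates came from separate cultures is not stated, and their spread may in part be technical.

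CEH-18 is a POU homeodomain transcription factor, a class of protein that pairs a POU-specific domain with a homeodomain and is known to bind the octamer ATGCAAAT and variants of it. In C. elegans it is known for its role in the sheath cells of the gonad, which signal to oocytes, and in the differentiation of epidermis. Most regulatory sequence of this compact genome lies just upstream of genes. Regulatory elements farther away, including enhancers and the promoters of non-coding RNAs, also occur, and a gene near such an element is not always the gene it acts on.

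Sequences at the strongest of these summits show what the tagged protein was found over. The 8 windows printed reach 75 bp to either side of the 8 summits with the highest signal, each named by the gene with the nearest protein-coding 5′ end. They are read 5′ to 3′ on the plus strand of the ce11 (WBcel235) assembly, from the RefSeq copy of that genome. Capitals mark the word GAGAGA or its complement TCTCTC. The windows are III:4282167-4282317 for sup-26, V:1151461-1151611 for cmd-1, II:11749878-11750028 for gpb-1, III:13062548-13062698 for F54F12.1, II:13335419-13335569 for mrpl-20, III:13068420-13068570 for Y39E4B.6, III:8658461-8658611 for F22B7.9 and III:4649399-4649549 for ppm-2.
sup-26: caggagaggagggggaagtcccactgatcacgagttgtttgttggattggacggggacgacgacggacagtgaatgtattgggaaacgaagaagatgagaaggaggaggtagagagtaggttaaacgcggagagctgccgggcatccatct
cmd-1: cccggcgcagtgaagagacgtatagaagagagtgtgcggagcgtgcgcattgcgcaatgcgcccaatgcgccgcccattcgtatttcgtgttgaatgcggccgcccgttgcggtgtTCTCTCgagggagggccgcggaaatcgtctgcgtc
gpb-1: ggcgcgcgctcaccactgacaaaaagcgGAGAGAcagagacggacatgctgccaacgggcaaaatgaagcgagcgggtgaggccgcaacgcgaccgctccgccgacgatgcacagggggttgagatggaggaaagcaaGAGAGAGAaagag
F54F12.1: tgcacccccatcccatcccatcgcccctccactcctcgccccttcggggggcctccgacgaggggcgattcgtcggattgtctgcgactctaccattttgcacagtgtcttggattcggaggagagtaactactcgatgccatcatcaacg
mrpl-20: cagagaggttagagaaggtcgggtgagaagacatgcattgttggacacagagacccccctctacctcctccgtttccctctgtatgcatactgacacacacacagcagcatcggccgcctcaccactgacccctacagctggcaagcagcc
Y39E4B.6: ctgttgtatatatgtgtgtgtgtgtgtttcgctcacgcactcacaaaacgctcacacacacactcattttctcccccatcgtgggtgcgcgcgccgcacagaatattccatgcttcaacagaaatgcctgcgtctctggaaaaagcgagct
F22B7.9: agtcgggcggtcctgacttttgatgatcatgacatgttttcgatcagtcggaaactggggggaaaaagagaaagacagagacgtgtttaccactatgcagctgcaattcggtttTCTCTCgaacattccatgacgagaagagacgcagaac
ppm-2: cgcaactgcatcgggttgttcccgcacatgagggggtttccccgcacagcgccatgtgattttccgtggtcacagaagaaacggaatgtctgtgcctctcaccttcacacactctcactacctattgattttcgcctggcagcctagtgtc
All 8 lie in intergenic sequence of protein-coding genes. The windows of cmd-1, gpb-1 and F22B7.9 hold the word, and the other 5 do not. Their GC content ran from 47.0% at F22B7.9 to 62.3% at cmd-1, in a class whose median was 47.0%.

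The highest signal of any autosomal distal summit, 661, lay 2018 bp upstream of the RNA-binding protein gene sup-26. The signal is the authors' peak height, whose scale is not stated, and serves here only to describe and rank peaks within 1 list. The peak covered III:4281955-4282598 and ranked 14 of all thresholded peaks. Replicate 1 gave it 344, rank 11, and replicate 2 gave it 315, rank 28. It was high in both.

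The next summit, of signal 629, was 4735 bp upstream of the calmodulin gene cmd-1, over V:1151282-1151763. It stood inside linc-128, an annotated long intergenic non-coding RNA gene, where replicate 1 gave 332 and replicate 2 gave 313. A summit of signal 627 lay 1342 bp upstream of gpb-1, which encodes a G protein beta subunit, over II:11749506-11750202. Its values were 318 and 320 in replicates 1 and 2. These 3 summits lay in stretches between genes that point the same way.

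The stretch between the divergent genes F54F12.1 and Y39E4B.6 held 2 of the 8 strongest. A signal of 587 lay 7181 bp upstream of F54F12.1, over III:13062366-13062899, with 279 in replicate 1 and 312 in replicate 2. The other, of signal 470, was 2261 bp upstream of Y39E4B.6, over III:13068346-13068656, with 232 and 243. A signal of 498 lay 2787 bp upstream of mrpl-20, a gene for a protein of the mitochondrial ribosome, over II:13335134-13335726. Both replicates were close there, at 259 and 257.

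The remaining 2 of the printed windows had signals under 470. At F22B7.9 the signal was 460, 4611 bp upstream, over III:8658415-8658703, with 217 in replicate 1 and 243 in replicate 2. At ppm-2, which encodes a protein phosphatase of the PP2C family, it was 455, over III:4649348-4649623, with 233 and 225. The ppm-2 summit was 1020 bp upstream, only just beyond the promoter window, and fell inside the overlapping non-coding RNA genes T23F11.7 and T23F11.10.

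The other 7 of the 15 strongest had signals from 410 to 453. A signal of 453 lay 1114 bp upstream of mtm-3, a phosphoinositide phosphatase gene of the myotubularin family, over III:3801378-3801736, with 240 in replicate 1 and 215 in replicate 2. At hif-1, the hypoxia-inducible transcription factor, the signal was 439, 1996 bp upstream, over V:20778259-20778562, with 200 and 239. At egl-9, the prolyl hydroxylase that marks HIF-1 for destruction, it was 432, 1751 bp upstream, over V:10466592-10466963, with 203 and 228.

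At F58D5.5 the signal was 434 over I:12039731-12040149, 1079 bp upstream, with 230 in replicate 1 and 209 in replicate 2. At casc-3 it was also 434, over I:13337193-13337442, 1150 bp upstream, with 234 and 204. At trak-1, whose mammalian relatives link mitochondria to kinesin, it was 429 over I:6118077-6118332, 4925 bp upstream, with 219 and 218. At tax-6, the catalytic subunit of calcineurin, it was 410 over IV:10503717-10504327, 2457 bp upstream, with 210 and 199. All 15 summits lay upstream of the gene with the nearest 5′ end, and 11 of the 15 lay within 3 kb of it.

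**Figure D1:**
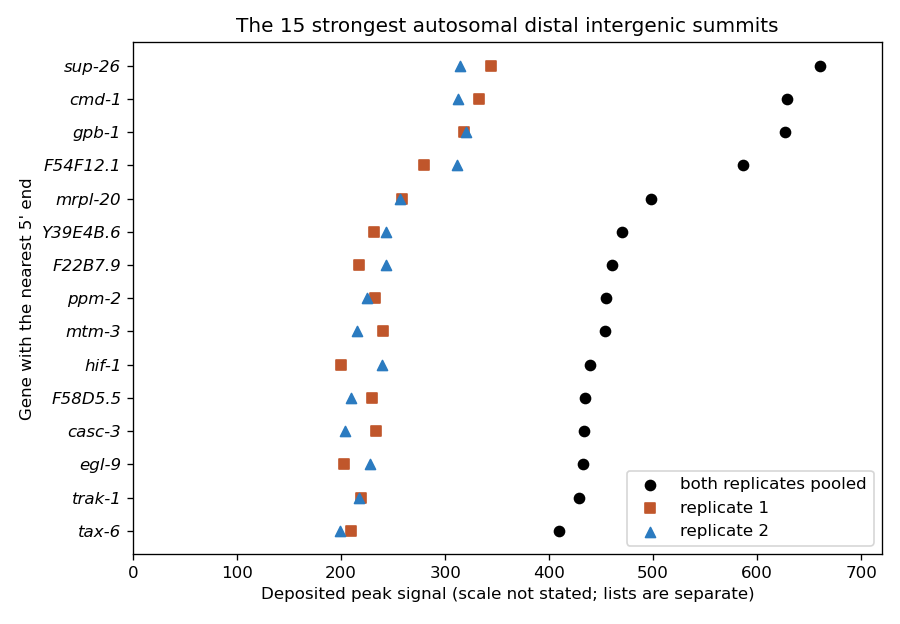
Deposited peak signal of the 15 strongest autosomal distal intergenic summits, 1 row per summit, named by the gene with the nearest 5′ end; circles are the list from both replicates pooled, squares replicate 1 and triangles replicate 2, each a separate list. Pooled signals run from 410 at tax-6 to 661 at sup-26, and both replicates place these summits close to each other.

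Autosomal distal summits had the lowest median signal of the 5 classes of summit compared here, by a small margin. Their signals ran from 114 to 661, with a median of 166 and quartiles of 134 and 216. The median was 170 in autosomal promoter windows, 171 in gene bodies, 195 beside small RNA genes and 174 at the 169 distal intergenic summits of X. Over all 2575 summits it was 172. They were 19.5% of the list, and of its top they made up 1 of the strongest 20, 6 of the strongest 100 (6%, 95% exact binomial interval 2.23% to 12.6%) and 75 of the strongest 500 (15%, 12% to 18.4%). The intervals given here describe counting error alone, and peaks near each other are not independent.

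The authors thresholded the pooled peaks by the irreproducible discovery rate (IDR), a measure of agreement between replicates. That threshold cut this class at a signal of 114.31, on chromosome I. A kept peak need not be in both replicate lists, since no peak of replicate 1 overlapped that at IV:16180773-16181256. The strongest pooled peak of the same setting that did not pass had a signal of 114.211, on V. The pooled list held 4730 distal intergenic autosomal peaks, of which 502 (10.6%, 9.75% to 11.5%) passed, beside 9.05% of all 28466 pooled peaks. In promoter windows 13.0% passed, and in gene bodies 3.04%.

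Position relative to genes varied in a regular way. The sequence that could hold such a summit amounted to 19.3 Mb of the autosomes, which gives 26 summits per Mb (exact Poisson interval 23.8 to 28.4). Promoter windows held 45.6 per Mb and gene bodies 7.73. Distal summits were densest between 1 and 2 kb from a 5′ end, at 34 per Mb (29.6 to 38.9). The density was 25.5 per Mb at 2 to 3 kb, 24.4 at 3 to 5 kb, 18.7 at 5 to 10 kb (14.3 to 24.2) and 8.53 farther away (3.13 to 18.6). The median distance was 2252.5 bp, beside 2645 bp for the eligible bases.

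Closer than 1 kb there were 9 summits, the nearest at 498 bp from try-10. By the rule of selection a summit this close can only lie downstream, past the end of a short gene. At the other extreme, 6 summits lay over 10 kb from any protein-coding 5′ end, up to 11569 bp upstream of egl-27. The strongest of these 6, with a signal of 315, was beside a microRNA gene, mir-80.

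Upstream sides of genes held most of the summits. Of the 502, 403 (80.3%, 76.5% to 83.7%) were upstream of the nearest 5′ end, where 63.6% of the eligible bases lie. The densities were 32.8 per Mb upstream and 14.1 per Mb downstream. Between divergent genes, whose 5′ ends face each other, there were 181 summits at 32.5 per Mb (27.9 to 37.6). Between genes in tandem there were 294 at 28.5 per Mb (25.3 to 31.9). Between convergent genes, where no 5′ end faces the stretch, there were 27 at 7.96 per Mb (5.25 to 11.6), or 5.38% of summits on 17.6% of bases.

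**Figure D2:**
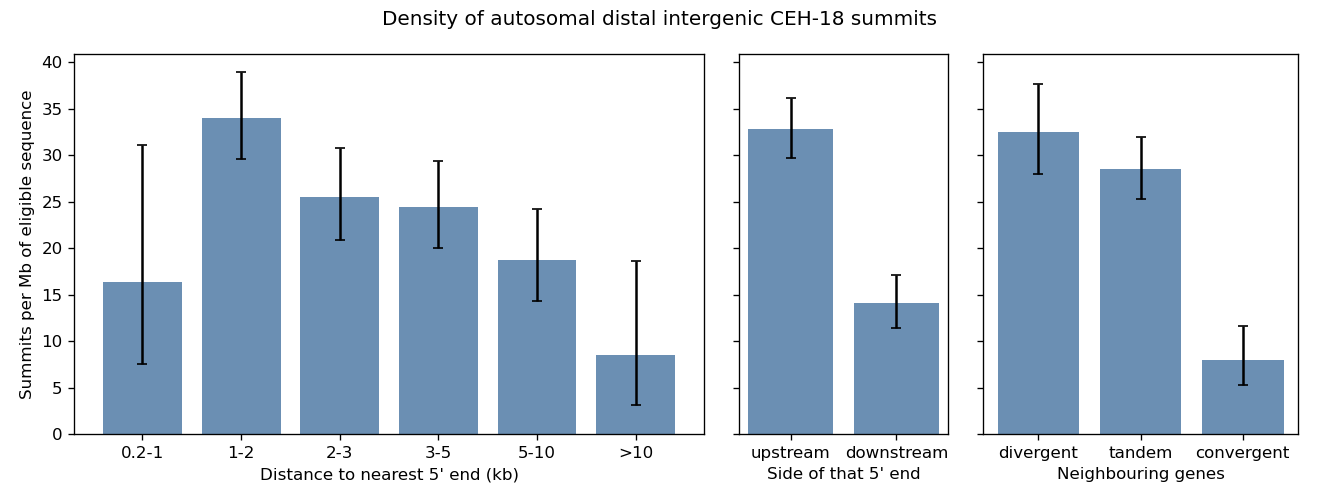
Autosomal distal intergenic summits per Mb of eligible sequence, by distance to the nearest protein-coding 5′ end, by side of that 5′ end and by the orientation of the neighbouring genes; bars are densities and error bars are exact Poisson intervals at 95%. Density falls from 34 per Mb at 1 to 2 kb to 8.53 beyond 10 kb, and is 7.96 between convergent genes.

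Chromosomes differed in density. Autosomes III and I held 39.5 (32.5 to 47.6) and 36.7 (29.97 to 44.5) summits per Mb. The values were 23.3 on II, 22.2 on IV and 18.4 on V (14.9 to 22.5), and X held 29.9 distal summits per Mb, chosen in the same way. Each autosome was cut into 3 parts of equal length, since the chromosome centres of this species are known to be rich in conserved genes. The middle part held 35.1 per Mb over the autosomes together (30.5 to 40.3), the left 24.3 and the right 19.98. The middle was the densest part on each of the 5 autosomes, from 25.8 per Mb on V to 53 on III. Median signal differed little, from 159 on II and III to 181 on IV.

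Summits gathered in some stretches. Of 7286 intergenic stretches with eligible sequence, 410 held a distal summit, and 61 of them held more than 1, which together took 153 of the 502. The most, 7, lay in the 13888 bp between rho-1, which encodes the small GTPase RhoA, and zip-7. Their signals ran from 117 to 377, the highest at IV:16498016-16498280, with 198 in replicate 1 and 172 in replicate 2. That summit was 7544 bp downstream of the 5′ end of zip-7, while 5 of the 7 were nearest to rho-1, from 1200 to 7703 bp upstream. Of these 7 summits, 6 had GAGAGA within 75 bp, beside 60.6% of all 502. They are not all separate, since the interval IV:16498219-16498346 overlaps that of the highest.

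Other stretches held 5 summits each. Between F54F12.1 and Y39E4B.6 the signals ran from 193 to 587 over 15313 bp. In the 18574 bp between snt-1, the synaptotagmin gene, and egl-27, whose mammalian relative MTA1 acts in chromatin regulation, they ran from 156 to 215. In the 20715 bp between sri-5 and ztf-6 they ran from 118 to 174. How many summits a stretch of such a length holds by chance was not tested. A wide peak can carry several summits, and the 502 summits had 498 distinct intervals, of which some overlap. Summits in overlapping intervals can come from 1 peak of a replicate. At Y39E4B.6 the summits 2261 and 2062 bp upstream shared the replicate values 232 and 243. Another distal summit was within 500 bp for 46 of the 502 (9.16%) and within 1 kb for 61 (12.2%). A count of summits is therefore not a count of separate peaks.

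Non-coding RNA genes stood at or beside many of these summits. Genes of the class that Ensembl calls ncRNA, mostly short transcripts without a named function, covered 53 summits (10.6%, 8.01% to 13.6%) and 1.36% of the eligible bases. Within 200 bp of such a gene there were 101 summits (20.1%, 16.7% to 23.9%), on 3.95% of the bases. Long intergenic non-coding RNA genes covered 11 summits (2.19%) on 0.788% of the bases. Pseudogenes covered 1 summit (0.199%) on 12.2% of the bases. Genes for piRNAs covered none, on 0.664% of the bases, which with 502 summits allows a share of up to 0.732% by the exact interval. Within 200 bp of a piRNA gene there were 5 summits (0.996%, 0.324% to 2.31%), on 7.89% of the bases.

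Summits within 200 bp of an ncRNA gene had a median signal of 179 and the others 165. GAGAGA was found in 58.4% (48.2% to 68.1%) of the first and 61.1% (56.1% to 65.9%) of the second. The strongest of these summits, at ppm-2, lay inside both T23F11.7 and T23F11.10, ncRNA genes on opposite strands. The 10 lincRNA genes at or within 200 bp of a summit were linc-128, linc-91, linc-151, linc-153, linc-129, linc-110, linc-81, linc-146, linc-87 and linc-57. After linc-128 the strongest was linc-91, with a summit of signal 291, 81.0 in replicate 1 and 161 in replicate 2. At that summit the 2 replicates were farther apart than at linc-128.

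MicroRNA genes had 6 summits within 200 bp (1.2%, 0.440% to 2.58%), on 0.169% of the bases. MicroRNAs are short RNAs that silence messages through their seed, bases 2 to 8 of the mature strand. The 5 genes were mir-80, mir-51, mir-52, mir-42 and mir-8209. The mature strands of the first 4 are printed to show the seeds, in capitals, as annotated by RefSeq on the same assembly. They lie at IV:11026074-11026096 on the minus strand for mir-51, IV:14034024-14034047 on the plus strand for mir-52, III:8865285-8865307 on the minus strand for mir-80 and II:11889870-11889891 on the plus strand for mir-42.
mir-51: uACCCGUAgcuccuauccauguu
mir-52: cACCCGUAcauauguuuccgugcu
mir-80: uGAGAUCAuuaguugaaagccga
mir-42: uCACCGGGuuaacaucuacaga
The seed of mir-51 and mir-52 is the same, and both belong to a family known to be required for embryonic development. The strand of mir-42 carries the seed of the mir-35 family, which is also known to be needed in the embryo.

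At mir-80 the summit was 200 bp upstream of the annotated gene, at 315 in the pooled list, 151.01 in replicate 1 and 165.65 in replicate 2. At mir-51 it was 89 bp upstream, and the same 3 lists gave 310, 181 and 134. At mir-52 it was 156 bp upstream, with 285, 143 and 145. The summit at mir-42 was weaker, 191 bp upstream, with 138, 66.4 and 68.1. All 4 lay on the upstream side of the microRNA, and the closest 5′ end of a protein-coding gene was 2984 bp away at mir-51, 3803 bp at mir-42, 9928 bp at mir-52 and 11561 bp at mir-80. The 2 summits at mir-8209 had signals of 300 and 210, of which 1 was inside the annotated gene and the other downstream of it. Their intervals overlap and share the same replicate values, 167 in replicate 1 and 140 in replicate 2.

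The word GAGAGA was at most of the summits. Within 75 bp of the summit, on either strand, it was found at 304 of the 502 (60.6%, 56.1% to 64.9%), beside 45.2% of all 2575 thresholded summits. In flanking windows of the same length 500 bp to either side it was found in 5.68% (4.33% to 7.29%), and in all 124351 tiles of that length in the eligible sequence in 8.12%. GAGAGA was in the earlier searches of these data, so its choice is not independent of them. Among all 2080 words of 6 bases, counted with their complements, it also had the largest difference between summits and flanks. AGAGAG, which overlaps it, came next with 58% of summits and 5.18% of flanks.

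Other classes of summit held the word in different shares. It was in 56.4% (50.7% to 61.9%) of windows in autosomal gene bodies, 44.4% (36.8% to 52.2%) at distal summits of X and 39.6% (36.6% to 42.7%) in autosomal promoter windows. Beside small RNA genes the share was 23.4% (17.4% to 30.4%). The interval of the autosomal distal summits overlaps that of gene bodies and lies above those of the other 3 classes. These differences were not tested.

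**Figure D3:**
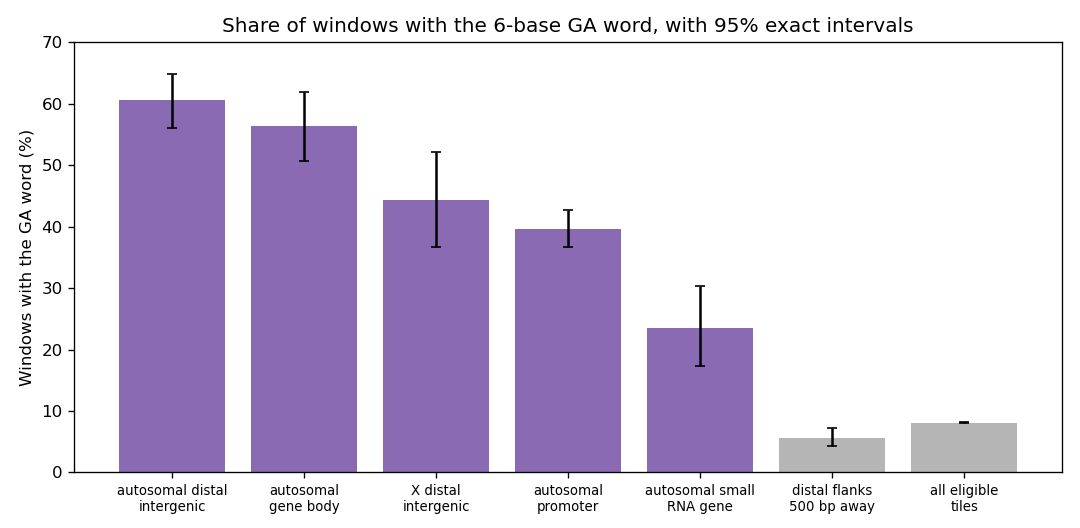
Share of windows, 75 bp to either side of the centre, that hold GAGAGA on either strand, for 5 classes of summit, the flanks of the autosomal distal summits and all tiles of the sequence eligible for that class; error bars are 95% exact binomial intervals, and the axis calls the word the GA word. Autosomal distal summits are at 60.6%, their flanks at 5.68% and the tiles at 8.12%.

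Base composition also differed between summits and their surroundings, but not between summits with and without the word, whose median GC content was 47.0% in both. The median GC content was 47.0% at the summits, 47.7% at all thresholded summits, 32.5% in the flanks and 33.8% in the tiles. Among windows with a GC content from 40% to 50%, GAGAGA was in 61.6% (55.7% to 67.4%) of 279 summit windows and in 14.1% of tiles. From 50% to 60% it was in 60.7% of summits and 18.2% of tiles. Between 30% and 40% the shares were 52.4% and 8.12%. At each of these levels the share at summits was several times that of tiles.

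Both features were centred on the summit. In bins of 20 bp the share of summits with a match starting in the bin was highest, 15.7%, from 60 to 41 bp on the lower-coordinate side. It was between 13.3% and 15.7% in each of the 6 bins from 60 bp below the summit to 59 bp above it. Mean GC content was 48.4% in the bin just below the summit.

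**Figure D4:**
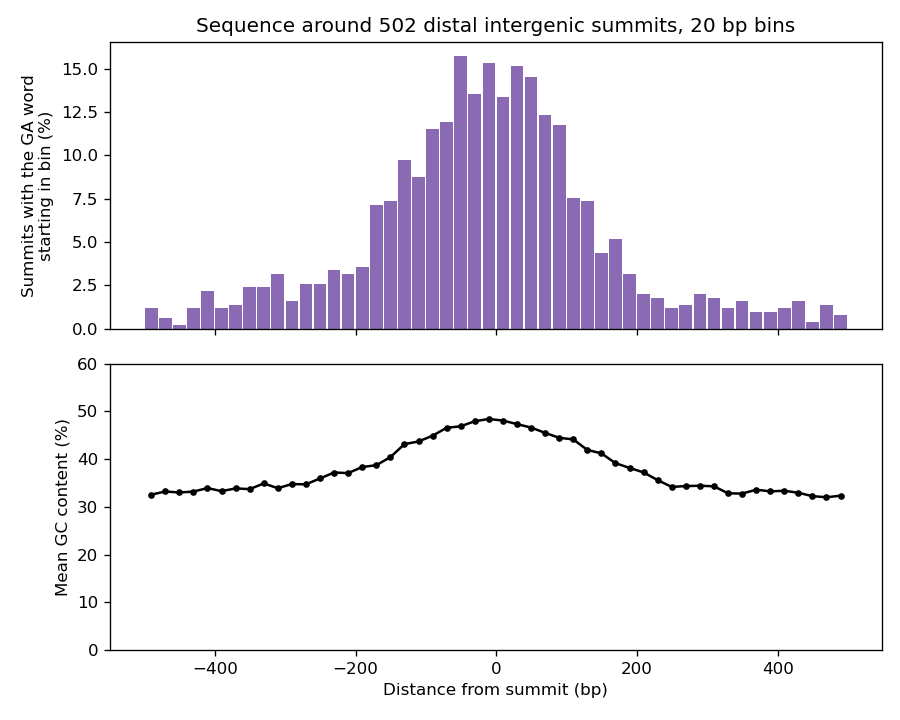
Upper plot, share of the 502 autosomal distal summits with GAGAGA on either strand starting in each 20 bp bin; lower plot, mean GC content of the same bins; the horizontal axis is the distance from the summit in bp. Both are highest around the summit, at up to 15.7% and 48.4%.

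The share with the word differed along the signal. It was in 68.3% (60.6% to 75.2%) of the 167 strongest, with signals of 199 and above, 59.9% (52% to 67.4%) of the next 167 and 53.6% (45.7% to 61.3%) of the 168 weakest. Neighbouring intervals overlap. Median GC content was 48.3%, 47.7% and 45.7% in the same order. Summits with the word had a median signal of 170 and those without it 157. By chromosome the share ran from 48.4% (38% to 58.9%) on V to 69.9% (60.1% to 78.5%) on I.

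Longer runs of alternating G and A were present at a minority. A run of at least 10 bp was at 78 summits (15.5%, 12.5% to 19%) and in 0.651% of tiles, and a run of at least 20 bp at 14 (2.79%) and in 0.0716% of tiles. The longest, 56 bp, was at a summit 1729 bp from the 5′ end of H06I04.6, over III:3065830-3066313. There 62.3% of the window was soft-masked as repeat in the RefSeq genome. Over all 502 windows the soft-masked share averaged 18.6%, beside 41.3% of the eligible bases.

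The octamer of POU proteins was in few windows, both at the summits and beside them. ATGCAAAT, searched on both strands, was in 6 of 502 windows (1.2%, 0.440% to 2.58%), 1.1% of flanks and 1.29% of tiles. Over all thresholded summits it was in 0.854%. A match is a description of the letters only, and a window without one may hold a variant that was not searched. Of the 6, 5 are printed, all but that nearest to ztf-6 (signal 119.08), with 11 bases on either side, on the plus strand of ce11, with the octamer or its complement in capitals. They are V:1471358-1471387 for gid-8, V:10178334-10178363 for cul-5, V:3677246-3677275 for pals-33, V:18723736-18723765 for Y17D7C.2 and IV:16494541-16494570 for rho-1.
gid-8: ttttgccgatcATTTGCATattttacactt
cul-5: atattaatgtaATGCAAATcatcttttccc
pals-33: cgaactgaaaaATTTGCATaaaaataaatc
Y17D7C.2: gaatgtgtacaATTTGCATtcccggacaat
rho-1: tgcgcgtatgaATGCAAATtactctgtctc
The signals of these 5 summits were 286 at gid-8, 181 at cul-5, 158 at pals-33, 144 at Y17D7C.2 and 118 at rho-1. The match lay between 22 and 71 bp from these 5 summits, and 51 bp from that of ztf-6.

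Shorter and other words differed in direction. The half-site ATGCA, which is part of the octamer, was in 19.3% of summit windows and 19.9% of flanks. TAATTA, a core that many homeodomains bind, was in 0.797% of summit windows, 8.47% of flanks and 7.53% of tiles. In windows of 40% to 50% GC the same word was in 1.08% of summits and 3.16% of tiles. The E-box CANNTG was in 54.4% of summit windows and 37.6% of flanks. GGGCGG was in 8.96% and 3.29%, and between 40% and 50% GC in 5.02% of summits and 5.72% of tiles. Runs of 8 T or A were in 7.77% of summits and 21.8% of flanks. Over all 2575 thresholded summits the shares were 20.8% for ATGCA, 1.51% for TAATTA and 51.7% for CANNTG. For GGGCGG the share was 10.4% and for the runs 7.92%. Flanks were searched for the autosomal distal summits only, so whether the contrasts with flanks are particular to this class was not tested.

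The genes nearest to these summits were counted by lists. In all, 439 of 17242 autosomal protein-coding genes (2.55%) had the nearest 5′ end to at least 1 distal summit. Genes with long upstream sequence can be nearest more often, so the density over the eligible bases nearest to a list's genes is given too where its interval does not hold the value of all genes. It was 26 summits per Mb over all genes. The intervals of these densities count summits nearest to the same gene as independent.

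Muscle and nerve genes were often among the nearest. Of 42 genes for body wall muscle structure, 13 (31.0%, 17.6% to 47.1%) were nearest to a summit, at a density of 245 per Mb (137 to 403). That density counts 15 summits, among them 2 at act-1 and 2 at dyb-1. The strongest was at act-1, an actin gene, whose signal was 407, against 185 in replicate 1 and 222 in replicate 2. That summit and the other nearest to act-1 lay downstream of its 5′ end, by 1601 and 2896 bp. Next were dyb-1, for dystrobrevin, with 294, 127 and 167, and ttn-1, for titin, with 262, 129.2 and 131.8. Of 31 pan-neuronal and synaptic genes, 10 (32.3%, 16.7% to 51.4%) were nearest, at 176 per Mb (84.4 to 324). The 3 strongest were unc-116, a kinesin heavy chain, at 269, unc-31, which acts in dense core vesicle release, at 227, and snt-1 at 214. The snt-1 summit was 11564 bp downstream of the 5′ end.

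Signalling lists were smaller and their intervals wide. In the EGF receptor, Ras and MAPK list 4 of 18 genes (22.2%, 6.41% to 47.6%) were nearest, at 134 per Mb (43.7 to 314). Of these, let-60, the Ras gene, had a summit of 315, 136 in replicate 1 and 179 in replicate 2, the MAP kinase phosphatase gene lip-1 one of 286, and the fibroblast growth factor gene let-756 one of 245. The TGF-beta list gave 3 of 18 (16.7%), at dbl-1, daf-4 and tig-3, with signals from 118 to 170. The Wnt list gave 3 of 26 (11.5%), at sfrp-1, pry-1 and kin-19, with signals from 131 to 279. No gene of the Notch list was nearest, of 18 (up to 18.5% by the exact interval). The axon guidance list gave 5 of 31 (16.1%), led by unc-70, for spectrin, at 327 and the ankyrin gene unc-44 at 266.

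Lists of transcription factor genes lay on both sides of the 2.55% of all autosomal genes, on counts of 8 or fewer. Of 45 autosomal homeobox genes named ceh, 1 was nearest (2.22%), ceh-22, at 119.4. Of the homeobox genes with other names it was 2 of 26 (7.69%, 0.946% to 25.1%), unc-62 at 144.9 and the Hox gene lin-39 at 118.8. The forkhead list gave 2 of 11 (18.2%, 2.28% to 51.8%), daf-16 at 198 and pha-4, the organ identity gene of the pharynx, at 134. The bHLH list gave 3 of 31 (9.68%, 2.04% to 25.8%), hif-1, hlh-10 and mml-1, and the mesodermal factors 2 of 19 (10.5%), ceh-22 and lin-39 again. Nuclear hormone receptors gave 8 of 246 (3.25%, 1.41% to 6.31%), with nhr-20 the highest at 397. In the epidermal transcription factor list 1 of 21 (4.76%) was nearest, ztf-6, with 4 summits of up to 174. The GATA, T-box and Sox lists gave none of 7, 18 and 4 genes.

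Epidermal junction genes gave 3 of 23, unc-70, let-413 and eps-8, and the heterochronic list 1 of 13, lin-41 at 234.9. Chromatin regulators gave 2 of 36 (5.56%, 0.680% to 18.7%), an interval that holds the 2.55% of all genes. They had 6 summits, 2 at chd-7 (up to 291) and 4 at egl-27, a density of 193 per Mb (70.7 to 419). The interval of that density counts summits of the same gene as independent. Ribosomal protein genes gave 2 of 76 (2.63%), rps-25 at 138 and rpl-21 at 133. Potassium channels gave 2 of 43 and ligand-gated channels 2 of 77.

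Other lists, among them large families of chemosensation and defence, gave shares under that of all genes. Of 1143 serpentine receptor genes whose names begin with sr, 4 (0.350%, 0.0954% to 0.894%) were nearest, at 3.35 summits per Mb (0.911 to 8.56). F-box genes gave 1 of 305 at 3.22 per Mb (0.0815 to 17.9), and C-type lectins 1 of 237. Collagens named col gave 1 (0.775%, 0.0196% to 4.24%). Neuropeptides gave 1 of 106 (0.943%, 0.0239% to 5.14%) at 4.11 per Mb (0.104 to 22.9). The share intervals of collagens and neuropeptides hold the 2.55% of all genes. No heat shock or chaperone gene of 56 was nearest (up to 6.38%). For the sr and F-box genes both the share and the density had intervals below those of all autosomal genes.

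The replicates gave like values at these summits. A peak of replicate 2 overlapped all 502 and a peak of replicate 1 overlapped 501, the exception being IV:16180773-16181256, with 80.8 in replicate 2. When as many peaks as the thresholded list holds, the strongest 2575, were taken from each replicate, 90.4% (87.5% to 92.9%) were overlapped in replicate 1 and 88.4% (85.3% to 91.1%) in replicate 2. Both held 400 (79.7%) and neither held 4. Over all thresholded peaks the shares were 90.0% and 90.5%. The thresholded list was made from both replicates, so this is a description and not independent evidence of agreement.

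Across the 501 summits with a peak in each list the Spearman coefficient of the signals was 0.772, beside 0.779 for all thresholded peaks. Summits are not replicates, and both lists were made by 1 procedure from 1 strain. After each list was divided by its median over all thresholded peaks found in both, 495 (98.8%) were within 2-fold, and their log2 ratios spread with an SD of 0.35. The pooled signal was a median of 0.996 times the sum of both. The widest gap was at nhr-21, over II:7337474-7337957, with 102 in replicate 1 and 25.3 in replicate 2, a log2 difference, replicate 1 minus replicate 2, of 2.04 after that division. In the opposite direction lpin-1, for lipin, had 38.4 and 87.4, a log2 difference of -1.16.

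**Figure D5:**
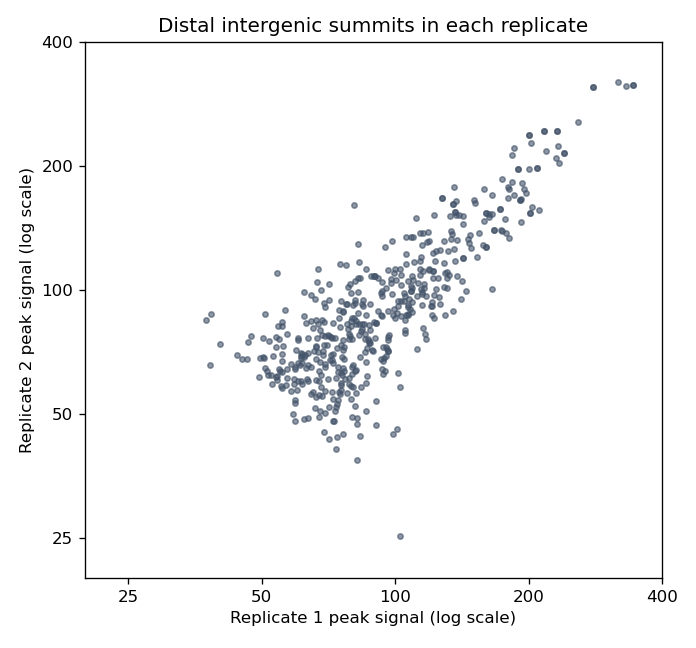
Signal of the strongest overlapping peak in replicate 1 (horizontal axis) and replicate 2 (vertical axis), both on log scales, for the 501 autosomal distal intergenic summits with a peak in both lists; each point is 1 summit. The points follow a diagonal with a Spearman coefficient of 0.772, and the lowest point on the vertical axis, at 25.3, is nhr-21.

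Summits close to the upstream edge and the small RNA edge of the definition had signals on both sides of the median of the class. Just beyond the 1000 bp edge were summits 1009 bp upstream of set-15 (signal 116.2), 1018 bp upstream of sup-1 (136), 1020 bp upstream of ppm-2 (455) and 1023 bp upstream of mstr-1 (174). Just inside the promoter window were those 999 bp upstream of pck-1 (208), 994 bp upstream of algn-10 (133), 972 bp upstream of jph-1 (209) and 971 bp upstream of T23G4.127 (136). Nearest to a small RNA gene but kept were summits at 214 bp (135), 487 bp (189), 580 bp (142) and 585 bp (234.6). Left out just within the limit were those at 185 bp (307), 162 bp (144), 125 bp (295) and 86 bp (147).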

How the data were processed

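Peak lists from CEH-18-GFP chromatin immunoprecipitation and sequencing of 2 replicates were used as the authors deposited them. Per the labels and the notes with the lists, there is 1 list per replicate, a pooled list and a list thresholded by the irreproducible discovery rate, the last used here on the ce11 build. Lists on ce10 were not used. For the aligner and the caller, the name and version were not given in the sources used here. Signal and summit offset of a peak are the deposited values of the authors' caller, and depth is unknown. Replicate 1's list has 30000 peaks, a round number that may be a limit on its length, and replicate 2's has 21337.

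Summits were placed by the stated rule with Ensembl release 115 genes, taking the 5′ end of every protein-coding transcript. Sequence and soft-masking came from the RefSeq copy of WBcel235. Coordinates are 1-based. A replicate's value is that of its strongest peak overlapping by at least 1 bp, so neighbouring summits can share it. Words were searched on both strands, and exact binomial and Poisson intervals are at 95%. No test over regions was run. The summits, the words and the 29 gene lists were chosen with earlier results of these data known. Named were the 15 strongest summits, the stretches with most summits and up to 3 genes per list. For the 1000 bp upstream edge and the small RNA edge, the 4 nearest on either side were named. The microRNA and lincRNA genes and the extremes of distance, GA run and replicate difference were named after their values were seen. Class assignment and word search were tested on simulated data. The software was pandas 2.3.3, scipy 1.17.1 and numpy 2.4.6 under Python 3.11.15, with figures from matplotlib 3.10.9.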

Additional observations from a re-analysis of the deposited data

How the results depend on the processing

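Of 31 values recomputed under another setting, 21 moved by less than their criterion. These 21 include some sizeable changes in the number of autosomal distal summits. It was 640 with a promoter window of 500 bp upstream and 100 bp downstream, and 439 outside the spans of all genes. The number of autosomal distal summits, 502, was 301 when the promoter window was widened to 2000 bp upstream and 500 bp downstream, and 223 among the 1287 strongest peaks. With RefSeq genes of the same assembly it was 533, including all 502. The GAGAGA share, 60.6%, was 48.4% within 50 bp of the summit, 76.9% within 150 bp and 66.4% among those 223, the first pair by construction since the windows are shorter and longer. Median GC content within 150 bp was 45%. In flanks 1000 bp away GAGAGA was in 10.1%. Replicate 1's strongest peaks had a summit within 100 bp at 86.9%. With the strongest 1287 peaks of each replicate, overlap was 49.8% in replicate 1 and 46.6% in replicate 2. Leaving out each replicate in turn gave 478 to 517 summits, a GAGAGA share of 57.4% to 62.3% and a median GC of 46.4% to 47.0%. Of the 502, 427 had a summit within 100 bp among the 478 found without replicate 1. Among the 517 found without replicate 2, it was 435. No paired analysis was possible because the replicates form 1 group. Without read counts, no value here has an error from depth.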
